A study of Mus musculus with 6 samples.

Results

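The unfolded protein response and the integrated stress response were followed through 31 genes in long-term haematopoietic stem cells of Irf8 knockout and wildtype mice. The genes were listed by name for their known roles, and each was represented by the probe set that had the highest mean over all arrays among those annotated to that gene alone. All 31 were measured, out of 18193 genes with such a probe set. They comprised 5 stress sensors and transcription factors, 15 endoplasmic reticulum (ER) chaperones and folding factors, 3 genes of ER-associated degradation and 8 targets of the ATF4 type.

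The series holds 3 arrays of knockout (Irf8-/-) mice and 3 arrays of wildtype (Irf8+/+) mice, each from cells sorted from bone marrow without treatment and labelled as 3 weeks. The sort kept cells without lineage markers or CD48 and with Sca-1, c-kit and CD150. RNA was amplified from small amounts and hybridised to Affymetrix mouse arrays, and the authors deposited 1 log2 value per probe set and array. The sources used here give neither strain nor sex of the mice, nor the part of Irf8 that was removed, and the labels call the samples biological replicates without naming animals.

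Proteins that enter the ER are folded by chaperones and joined by disulphide bonds there. When unfolded protein accumulates, the membrane sensors IRE1 (Ern1), ATF6 and PERK raise chaperones and degradation factors through the transcription factors XBP1 and ATF6, and PERK slows translation by phosphorylating eIF2. The same phosphorylation follows amino acid shortage and other stresses, and it favours translation of ATF4, which raises genes of amino acid synthesis and uptake. In haematopoietic stem cells, which keep protein synthesis low, both arms are studied as a control point between survival and removal of stressed cells.

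Promoters of some of these genes hold elements through which the 2 arms act, and 6 promoters are shown with any matches in capitals. Hspa5 and Dnajc3 stand for chaperones with an ER stress response element, Herpud1 for a gene with matches of both arms, and Asns for an ATF4-type target. Pdia4 and Edem1 are the genes whose probe sets are given 1 by 1 below. Each window runs from 250 bases before the annotated start to 50 after, 5′ to 3′ along the gene, from RefSeq in build GRCm38.p6.
Hspa5, chr2:34771840-34772139, plus strand: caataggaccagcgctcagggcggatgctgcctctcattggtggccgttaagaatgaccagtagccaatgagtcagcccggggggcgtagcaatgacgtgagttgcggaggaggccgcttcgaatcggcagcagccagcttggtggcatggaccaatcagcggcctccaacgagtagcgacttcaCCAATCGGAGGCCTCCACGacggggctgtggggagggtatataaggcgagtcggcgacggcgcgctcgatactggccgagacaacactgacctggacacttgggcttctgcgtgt
Dnajc3, chr14:118937682-118937981, plus strand: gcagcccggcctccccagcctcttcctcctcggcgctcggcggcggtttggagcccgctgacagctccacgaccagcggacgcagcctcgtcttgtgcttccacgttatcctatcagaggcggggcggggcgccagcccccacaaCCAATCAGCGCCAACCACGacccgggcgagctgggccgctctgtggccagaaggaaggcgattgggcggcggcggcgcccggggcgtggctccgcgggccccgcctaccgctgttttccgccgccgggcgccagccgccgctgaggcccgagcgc
Herpud1, chr8:94386179-94386478, plus strand: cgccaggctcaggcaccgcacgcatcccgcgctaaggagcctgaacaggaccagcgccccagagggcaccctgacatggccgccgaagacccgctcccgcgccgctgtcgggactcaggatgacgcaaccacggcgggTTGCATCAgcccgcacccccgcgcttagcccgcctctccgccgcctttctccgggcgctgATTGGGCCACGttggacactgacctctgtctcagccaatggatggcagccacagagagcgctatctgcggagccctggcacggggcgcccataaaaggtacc
Asns, chr6:7693160-7693459, minus strand: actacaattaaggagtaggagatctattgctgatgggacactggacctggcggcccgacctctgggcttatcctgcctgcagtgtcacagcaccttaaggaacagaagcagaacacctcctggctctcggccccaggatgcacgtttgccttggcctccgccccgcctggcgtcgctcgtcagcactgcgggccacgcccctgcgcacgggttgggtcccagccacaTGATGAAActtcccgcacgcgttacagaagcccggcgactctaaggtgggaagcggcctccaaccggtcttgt
Pdia4, chr6:47813463-47813762, minus strand: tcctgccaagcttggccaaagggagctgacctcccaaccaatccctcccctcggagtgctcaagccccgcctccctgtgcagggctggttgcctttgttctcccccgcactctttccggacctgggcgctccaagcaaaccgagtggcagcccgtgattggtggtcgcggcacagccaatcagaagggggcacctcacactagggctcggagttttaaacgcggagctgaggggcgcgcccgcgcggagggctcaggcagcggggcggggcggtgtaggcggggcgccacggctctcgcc
Edem1, chr6:108828391-108828690, plus strand: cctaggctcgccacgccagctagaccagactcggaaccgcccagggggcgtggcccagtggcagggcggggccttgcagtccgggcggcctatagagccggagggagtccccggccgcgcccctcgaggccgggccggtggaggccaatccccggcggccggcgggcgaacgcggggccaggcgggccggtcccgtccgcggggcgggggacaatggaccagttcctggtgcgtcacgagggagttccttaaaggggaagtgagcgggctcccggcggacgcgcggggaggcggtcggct

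Windows were given for 28 of the 31 genes, 29 windows in all, and both strands were searched for 4 motifs. The ER stress response element, CCAAT and CCACG with 9 bases of any kind between them, to which NF-Y and ATF6 bind, was found in 7 of the 13 chaperone and folding windows, those of Hspa5, Hsp90b1, Calr, Canx, Pdia6, Dnajc3 and Creld2, and in 0.119% of all 32851 windows. The second form of this element, ATTGG and CCACG with 1 base of any kind between them, was found in Dnajb11 and Herpud1 and in 0.0365% of all windows. The CARE core TGATGNAA, to which ATF4 binds with C/EBP partners, was found in Asns, Chac1, Slc7a11 and Trib3, 4 of the 9 windows of ATF4-type targets, and in Herpud1, against 3.97% of all windows. The unfolded protein response element TGACGTGG was found in 0 of the 29 windows and in 0.676% of all. Both forms of the ER element hold CCACG, but no matched stretch in these windows was shared between motifs. In Hspa5 the element lay from base -65 to base -47, counted with the annotated start as base 0, and in Asns the CARE core lay from base -23 to base -16. In these windows Pdia4 and Edem1 had a match to none of the 4 motifs. Several of these genes were used in the field to define the elements, so the shares describe the genes and are not a result about Irf8.

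Before the members, the arrays themselves were compared. Array medians ran from 4.85 to 4.96 on the log2 scale, and the mean correlation of an array with the others over genes ran from 0.845 in knockout replicate 3 to 0.893 in wildtype replicate 1. With the other arrays of its own group it was 0.86, 0.87 and 0.84 in knockout and 0.91, 0.90 and 0.90 in wildtype. The knockout arrays were thus less alike. The targeted gene read 4.91, 6.39 and 6.50 in knockout and 4.98, 6.43 and 5.16 in wildtype, so Irf8 signal on the probe set used does not separate the labels. Its group means of 5.93 and 5.52 lay near the median gene level of 5.81. Stem cell markers were present: the 8 measured of 10 listed all lay above the median gene level of 5.81, although Slamf1, which encodes CD150, read 9.02, 8.49 and 4.71 in knockout and 5.97, 9.11 and 6.63 in wildtype. Cd48, whose product the sort excluded, read 7.60, 9.42 and 3.55 in knockout and 4.54, 4.31 and 3.12 in wildtype. The 11 measured neutrophil precursor markers had a median difference of 2.41, all 11 above 0, and their median stood 1.98, 1.34 and 4.75 above the wildtype mean in the 3 knockout arrays. In limma 0 of the 11 had an adjusted p under 0.05. The groups did not overlap for 4 of them, where this held for 4.89% of genes above the median level. In knockout replicate 2, 4 of the 11 lay below their wildtype mean. In bulk RNA, fewer cells of a type and less RNA per cell cannot be told apart.

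No member differed between knockout and wildtype past the threshold. In limma, fitted over all 18193 genes with Benjamini-Hochberg adjustment, 0 of 31 members had an adjusted p under 0.05, as did 0% of all genes, and the lowest adjusted p of a member was 0.887. At an unadjusted p under 0.05 there were 2 members, where 4.84% of all genes had such a value. These were Pdia4, lower in knockout as were 2.44% of all genes at that p, and Edem1, higher in knockout as were 2.4%. The median difference of the 31 members was -0.28 on the log2 scale, with 20 below 0. Over all genes the median was 0.07 and 43.4% lay below 0. Since 28 of the 31 members lay above the median gene level, the genes above that level are the closer comparison. Of these, 52.9% lay below 0 with a median of -0.05. At an unadjusted p under 0.05, 338 of these 9096 genes were lower in knockout and 177 higher.

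All 3 knockout arrays lay below all 3 wildtype arrays for 4 members, Pdia4, P4hb, Herpud1 and Psat1, where this held for 4.25% of all genes and 6.3% of those above the median level. They lay above all wildtype arrays for 1 member, Edem1, where this held for 6.67% and 4.89%. With 3 arrays against 3, an exact permutation test of a single value cannot give a p below 0.1.

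**Figure D1:**
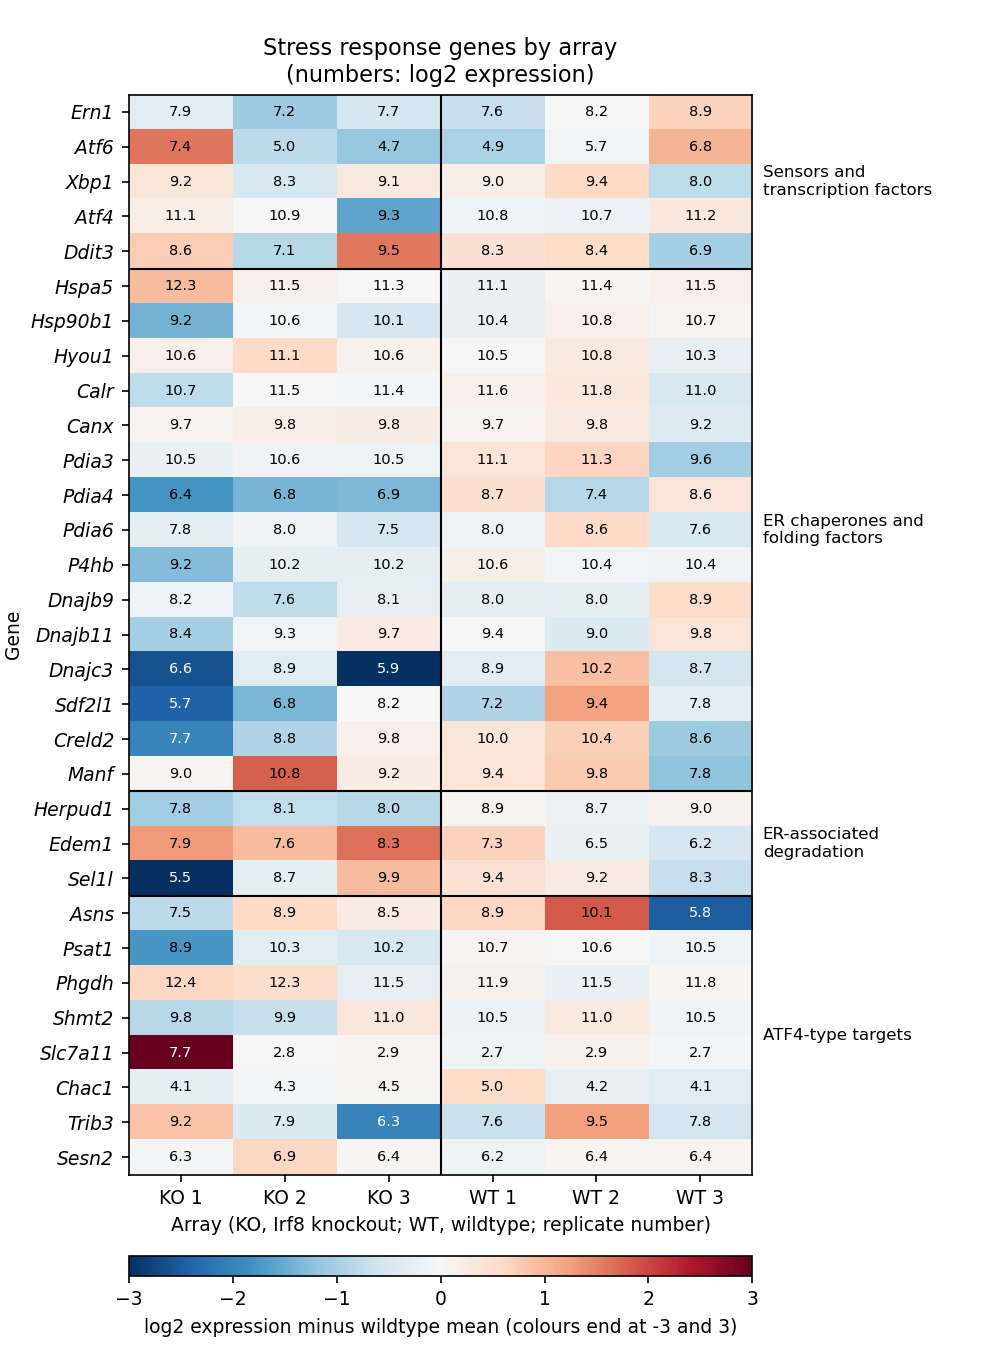
Log2 expression of the 31 stress response genes (rows, by role) on the 3 knockout and 3 wildtype arrays (columns), coloured by the difference from the gene's wildtype mean. Pdia4 is below every wildtype array in all 3 knockout arrays, whereas Slc7a11 stands apart in knockout replicate 1 alone, at 7.72.

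The sensors and transcription factors at the head of the response did not separate the groups. Xbp1, whose mRNA is spliced by IRE1 and which drives chaperone and degradation genes, read 9.17, 8.33 and 9.09 in knockout and 8.99, 9.42 and 8.05 in wildtype. The difference was 0.05 (SE 0.55), and these probe sets measure total mRNA and were not checked for the spliced form. Atf6, the membrane-bound factor cut free under stress, averaged 5.69 ± 1.49 in knockout and 5.80 ± 0.98 in wildtype (log2, SD, n = 3 each). Knockout replicate 1 and wildtype replicate 3 were the 2 highest arrays for Atf6. Its second probe set read 4.07, 3.78 and 4.10 in knockout and 6.14, 8.84 and 4.80 in wildtype, without overlap.

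Ern1, the gene of the sensor IRE1, averaged 7.60 ± 0.38 in knockout and 8.25 ± 0.69 in wildtype, a difference of -0.65 (SE 0.57) within overlapping groups. It was -0.30 without wildtype replicate 3 and -0.18 as the mean of its 5 probe sets. Atf4 read 11.10, 10.92 and 9.35 in knockout and 10.80, 10.74 and 11.24 in wildtype. The difference of -0.47 (SE 0.50) rested on knockout replicate 3, without which it was 0.08. Ddit3 (CHOP), a factor downstream of ATF4 that promotes death under lasting stress, read 8.65, 7.05 and 9.45 in knockout and 8.34, 8.43 and 6.89 in wildtype. Its highest value was in knockout replicate 3, and without that array its difference was -0.03 in place of 0.50, while without wildtype replicate 3 it was 0.0040. ATF4 protein is set largely at translation, which these arrays do not measure.

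Among the ER chaperones and folding factors, 11 of 15 differences lay below 0 and the median was -0.31. Hspa5 (BiP), the Hsp70 of the ER that also holds the sensors inactive, read 12.29, 11.48 and 11.34 in knockout and 11.14, 11.41 and 11.51 in wildtype. Only knockout replicate 1 stood above the wildtype range, and the difference of 0.35 (SE 0.29) was 0.056 without that array. Its 2 other probe sets differed by -0.65 (SE 0.33) and 0.39 (SE 0.39), so the sign depends on the probe set. Hsp90b1 (GRP94), the Hsp90 of the ER, read 9.19, 10.57 and 10.10 in knockout and 10.38, 10.75 and 10.69 in wildtype. There knockout replicate 1 was the lowest of the 6 arrays, and the difference of -0.65 (SE 0.42) was -0.27 without it. Hyou1, the large Hsp70 that exchanges nucleotide on BiP, averaged 10.79 ± 0.27 in knockout and 10.50 ± 0.25 in wildtype (SD, n = 3 each).

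The protein disulphide isomerases held the 2 chaperone genes without overlap. Pdia4 (ERp72) read 6.44, 6.84 and 6.88 in knockout and 8.71, 7.36 and 8.62 in wildtype. The 3 knockout arrays lay within 0.5 of each other and below wildtype replicate 2, the lowest of its group, and the difference was -1.51 (SE 0.57, adjusted p = 0.887 in limma). Leaving out any 1 array left this difference between -1.94 and -1.27. P4hb, the founding member of the family, read 9.15, 10.16 and 10.17 in knockout and 10.64, 10.39 and 10.36 in wildtype. The gap between the groups was narrow, and the difference of -0.63 (SE 0.39) was -0.29 without knockout replicate 1.

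Pdia3 (ERp57), which folds glycoproteins held by calnexin and calreticulin, read 10.47, 10.56 and 10.52 in knockout and 11.07, 11.32 and 9.63 in wildtype. The knockout arrays lay inside the wildtype range. Pdia6 averaged 7.76 ± 0.22 in knockout and 8.08 ± 0.52 in wildtype, and its difference of -0.31 (SE 0.52) was -0.030 without wildtype replicate 2. Its other probe set read 3.78, 3.29 and 3.57 in knockout and 5.71, 3.91 and 5.36 in wildtype, without overlap, although all 6 values lay under the median gene level. Calr (calreticulin) and Canx (calnexin), the lectin chaperones of glycoproteins, differed by -0.27 (SE 0.31) and 0.18 (SE 0.37). The Calr difference was -0.022 without knockout replicate 1.

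The J-domain cochaperones, which direct substrates to BiP, did not give 1 picture either. Dnajc3 (p58IPK), which also inhibits the eIF2 kinases, read 6.64, 8.89 and 5.91 in knockout and 8.91, 10.16 and 8.70 in wildtype. Knockout replicate 2 reached the wildtype range, and the difference was -2.11 (SE 0.89), or -1.49 without knockout replicate 3. Its other 4 probe sets differed by 0.15, -0.39, -1.63 and 0.03. Dnajb9 (ERdj4) and Dnajb11 (ERdj3) differed by -0.38 (SE 0.52) and -0.28 (SE 0.51). The Dnajb9 difference was -0.10 without wildtype replicate 3, and that of Dnajb11 was 0.082 without knockout replicate 1.

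Sdf2l1, a partner of ERdj3, read 5.73, 6.76 and 8.16 in knockout and 7.23, 9.35 and 7.84 in wildtype. Creld2, a secreted ER stress target, read 7.66, 8.77 and 9.83 in knockout and 10.02, 10.38 and 8.61 in wildtype. In both genes knockout replicate 1 was the lowest of the 6 arrays, and the differences were -1.26 (SE 0.85) and -0.92 (SE 0.74). Without knockout replicate 1 they were -0.68 and -0.37, and without wildtype replicate 2 they were -0.66 and -0.56. Manf, a small secreted factor that binds BiP, averaged 9.66 ± 0.96 in knockout and 8.96 ± 1.06 in wildtype, a difference of 0.69 (SE 0.73). Leaving out knockout replicate 2 made it 0.14, and leaving out wildtype replicate 3 made it 0.094.

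**Figure D2:**
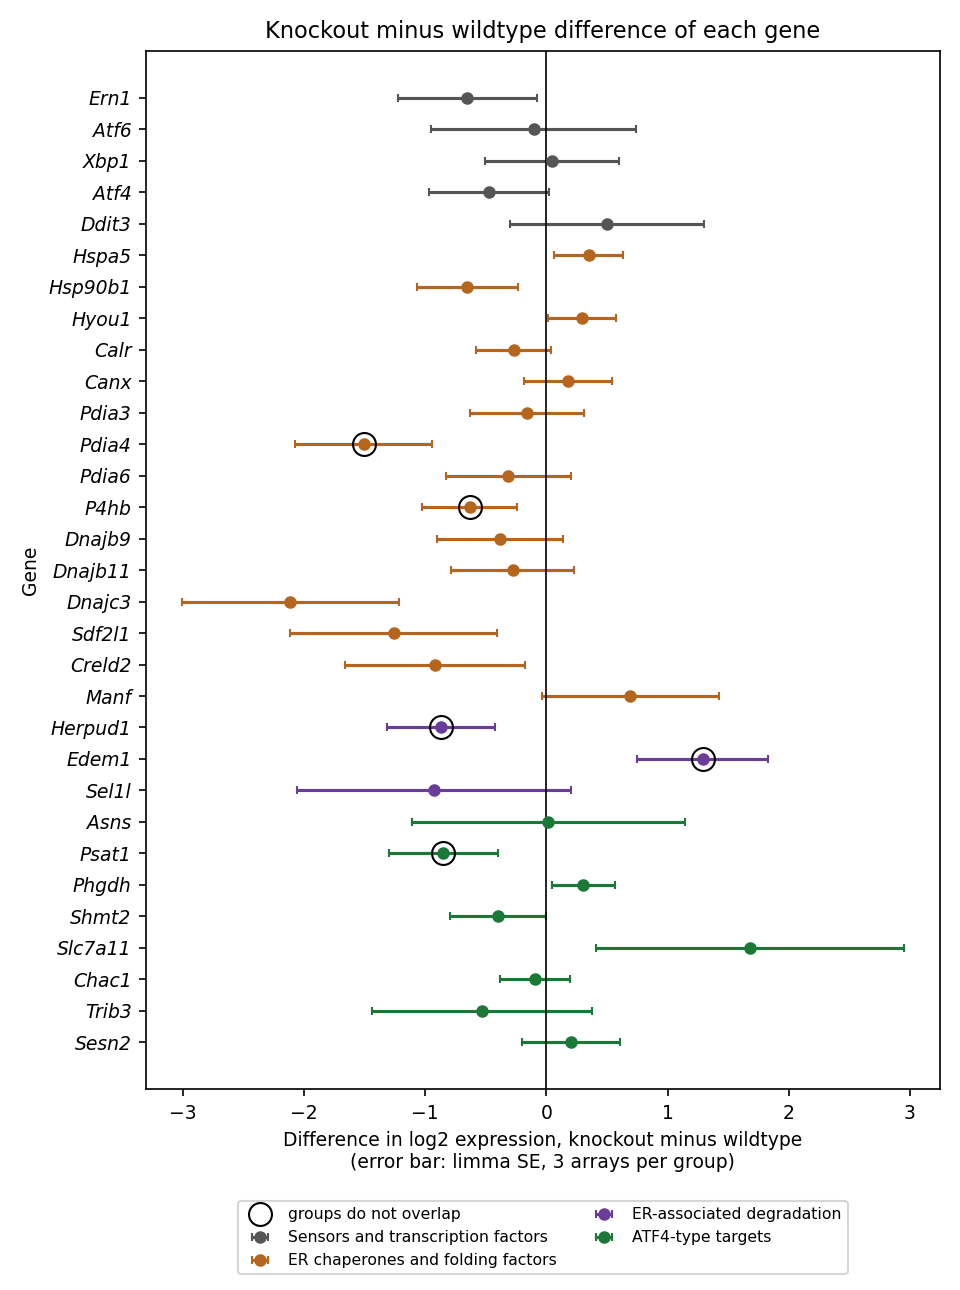
Difference in log2 expression, knockout minus wildtype, of each of the 31 genes, by role, with the standard error from limma over 3 arrays per group. Most chaperones and folding factors lie left of 0, the ATF4-type targets lie on both sides, and the circled genes, Pdia4, P4hb, Herpud1, Psat1 and Edem1, are those whose groups do not overlap.

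The 3 genes of ER-associated degradation gave 3 different pictures. Herpud1, a membrane protein of the degradation complex, read 7.80, 8.11 and 8.03 in knockout and 8.89, 8.68 and 8.97 in wildtype. Both groups were tight, and the difference of -0.87 (SE 0.45, adjusted p = 0.887 in limma) stayed between -0.96 and -0.78 when any 1 array was left out. Its other probe set did not repeat this, with 4.60, 6.27 and 10.18 in knockout and 7.24, 5.29 and 7.27 in wildtype. Sel1l, the adaptor of the ubiquitin ligase HRD1, read 5.52, 8.72 and 9.94 in knockout and 9.42, 9.23 and 8.30 in wildtype. Knockout replicate 1 alone was low, and the difference of -0.93 (SE 1.13) was 0.34 without that array. Among the 4 other probe sets of Sel1l, 1 read 5.42, 7.85 and 6.37 in knockout and 8.86, 10.33 and 8.34 in wildtype, without overlap, while 2 others had differences above 0.

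Edem1, which takes misfolded glycoproteins out of folding, had 2 probe sets that pointed in opposite directions. The one chosen by the rule read 7.94, 7.60 and 8.31 in knockout and 7.35, 6.47 and 6.16 in wildtype. The other read 4.87, 4.92 and 6.73 in knockout and 9.02, 10.13 and 6.76 in wildtype. Neither probe set had overlapping groups, although knockout replicate 3 and wildtype replicate 3 were within 0.1 of each other on the second. In the fit over all 45037 probe sets the differences were 1.29 (SE 0.54) and -3.13 (SE 1.01), each with adjusted p = 0.906 in limma, and 0% of all probe sets passed. The rule of the highest mean thus picks between opposite signs here, and the average of both gives -0.92 for the gene. Which transcripts each probe set detects was not examined.

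Pdia4 also had 2 probe sets, of which only the one chosen by the rule separated the groups. It had the difference of -1.51 given above, for which the fit over all probe sets gave SE 0.56 and adjusted p = 0.906 in limma. The other read 3.27, 3.60 and 4.17 in knockout and 3.77, 3.30 and 3.55 in wildtype. These values lay under the median gene level, the groups overlapped, and the difference was 0.14 (SE 0.28).

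**Figure D3:**
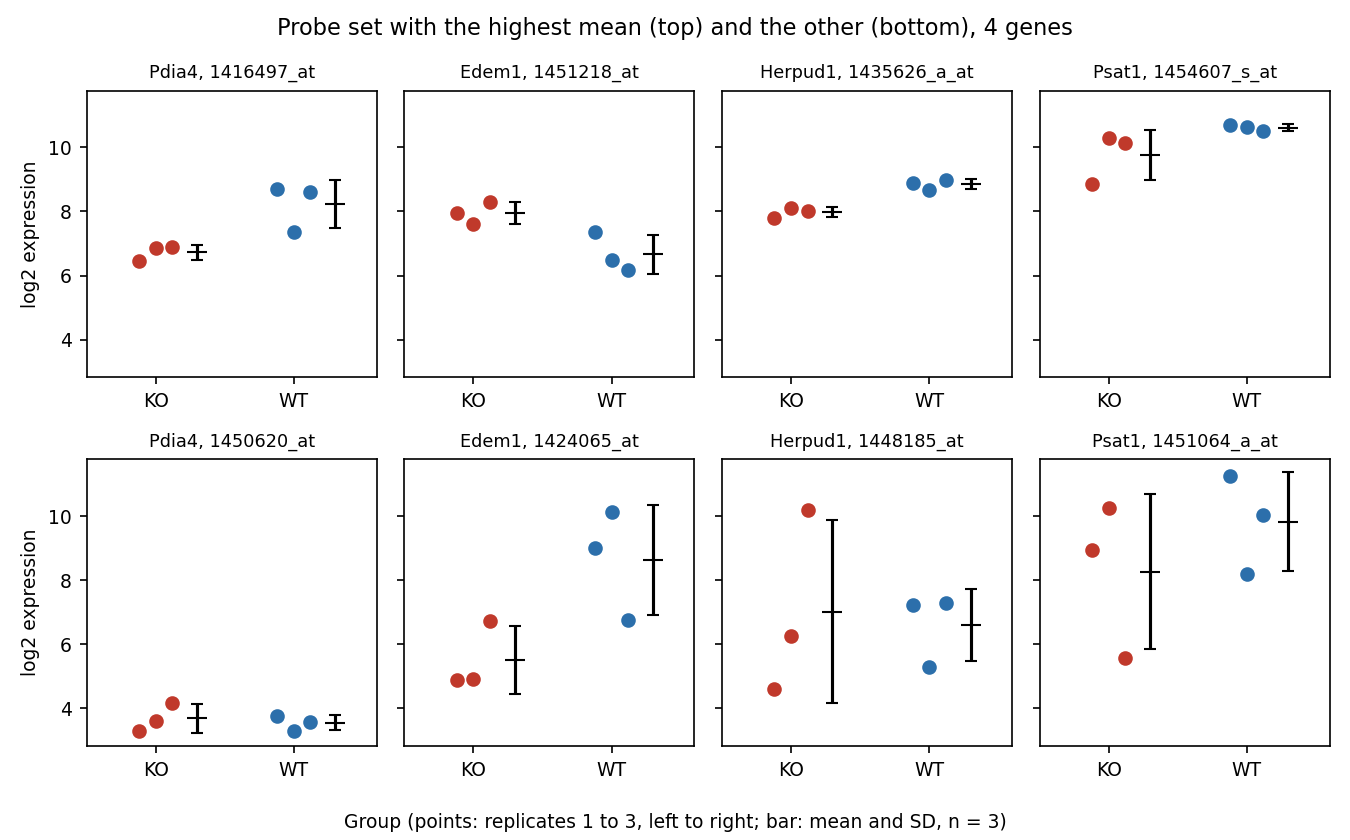
Log2 expression on each knockout (left) and wildtype (right) array for the probe set with the highest mean (top) and the other probe set (bottom) of Pdia4, Edem1, Herpud1 and Psat1, with mean and SD of 3 arrays. The top row separates the groups in all 4 genes, and in the bottom row Edem1 alone does, in the direction opposite to its other probe set.

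Probe sets of 1 gene often disagreed across the members. The 31 genes had 76 probe sets, and of the 24 genes with several, 10 had all differences of 1 sign and 14 had both signs. All probe sets lay below 0 for Atf6, Hsp90b1, Calr, Pdia6, Psat1 and Trib3, and above 0 for Ddit3, Asns, Phgdh and Sesn2. Of the 76 probe sets, 10 were lower in knockout without overlap and 4 higher, where over all probe sets 4.23% and 6.66% were. Over genes above the median level the shares were 6.3% and 4.89%, and probe sets of 1 gene are not independent. At an unadjusted p under 0.05 in limma there were 7 of the 76, all lower in knockout, and 0 passed after adjustment. Of all probe sets 4.7% had such a p in either direction, and the share by direction was not computed. Canx is an example among the chaperones. Its chosen probe set differed by 0.18, while its 2 others differed by -1.34 (SE 0.69) and -2.46 (SE 0.87) without overlap between the groups. The chosen probe set is of the type _s_at, which can detect several transcripts.

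The ATF4-type targets split evenly, with 4 differences below 0 and 4 above and a median of -0.04. Among these members, Psat1 and Phgdh of serine synthesis had differences of opposite sign, and neither passed after adjustment. Psat1, the phosphoserine aminotransferase, read 8.87, 10.30 and 10.15 in knockout and 10.71, 10.64 and 10.52 in wildtype. The 3 wildtype arrays were nearly equal and all knockout arrays lay below them, with a difference of -0.85 (SE 0.45) that was -0.40 without knockout replicate 1. Phgdh, the first enzyme of that pathway, read 12.35, 12.26 and 11.47 in knockout and 11.86, 11.52 and 11.79 in wildtype. The difference of 0.30 (SE 0.26) was 0.14 without knockout replicate 1 and 0.58 without knockout replicate 3. All 4 of its probe sets had a difference above 0, from 0.30 to 0.56, and 2 of them were without overlap. All 4 are of the type _x_at, open to cross-hybridisation. Shmt2, which makes glycine in mitochondria, differed by -0.40 (SE 0.40), which was -0.18 without knockout replicate 1 and -0.77 without knockout replicate 3.

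Asns, asparagine synthetase, averaged 8.32 ± 0.72 in knockout and 8.30 ± 2.23 in wildtype. Wildtype replicate 3, at 5.83, was the lowest and wildtype replicate 2, at 10.15, the highest of the 6 arrays, and without wildtype replicate 3 the difference was -1.22 in place of 0.02. Slc7a11, the cystine transporter, read 7.72, 2.76 and 2.85 in knockout and 2.67, 2.89 and 2.73 in wildtype. Its difference of 1.68 (SE 1.27) came from knockout replicate 1 and was 0.04 without it. Its second probe set read between 2.25 and 3.02 on all 6 arrays.

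Trib3, the pseudokinase that restrains ATF4, averaged 7.79 ± 1.43 in knockout and 8.32 ± 1.06 in wildtype, with knockout replicate 3 the lowest at 6.30. Sesn2, a stress-induced leucine sensor, averaged 6.53 ± 0.36 in knockout and 6.33 ± 0.14 in wildtype. Chac1, a glutathione-degrading enzyme and sensitive reporter of the ATF4 arm, read 4.13, 4.34 and 4.49 in knockout and 4.95, 4.17 and 4.10 in wildtype, under the median gene level on every array.

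By array, the medians of the chaperones and of the ATF4-type targets were both lowest in knockout replicate 1 and highest in wildtype replicate 2. The median chaperone stood -0.77, -0.10 and -0.05 from its wildtype mean in knockout replicates 1, 2 and 3 and -0.0019, 0.26 and -0.30 in wildtype replicates 1, 2 and 3. Wildtype replicate 3 thus lay below 2 of the 3 knockout arrays. The median ATF4-type target stood -0.16, -0.04 and 0.06 in knockout and -0.0034, 0.10 and -0.11 in wildtype, a narrower range in which the groups also overlapped. Knockout replicate 1 held the lowest value of the 6 arrays for 7 of the 15 chaperones and wildtype replicate 3 for 4, where the shares over genes above the median level were 17.8% and 16.2%. Without knockout replicate 1 the chaperone median was -0.27, and without the other arrays it ran from -0.54 to -0.37. The ATF4-type median ran from -0.35 without wildtype replicate 3 to 0.15 without wildtype replicate 1.

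Marker lists were set beside the chaperones on each array, without a test. In knockout replicates 1, 2 and 3 the median of the 11 neutrophil precursor markers stood 1.98, 1.34 and 4.75 above the wildtype mean. The chaperone median on those arrays was -0.77, -0.10 and -0.05. Markers of plasma cells, in which the XBP1 arm is highest, had a median difference of -0.05 over 8 genes, 3 of them above the median gene level, and that list shares Xbp1 with the members and Fkbp11 with the other pathway genes. Of the plasma cell markers, 4 differences lay below 0 and 4 above. Jchain, the joining chain of secreted antibodies, read 3.66, 3.34 and 3.56 in knockout and 3.31, 8.66 and 4.14 in wildtype. Wildtype replicate 2, where it was high, held the highest value of the 6 arrays for 8 of the 15 chaperones. That array held the highest value for 1326 of the 9096 genes above the median level. Among the plasma cell markers Xbp1, on its chosen probe set, was also highest on that array, while Sdc1, Mzb1, Prdm1, Irf4, Tnfrsf17 and Fkbp11 were not. Other Xbp1 probe sets varied. One was highest in wildtype replicate 2 too, at 9.92. Others were highest in knockout replicate 1, at 9.46 and 9.61, against 8.94 and 9.60 in wildtype replicate 2. Jchain, Sdc1, Fkbp11 and Irf4 differed by -1.85 (SE 1.29), -1.36 (SE 0.76), -1.34 (SE 0.48) and -0.15 (SE 0.30). Mzb1, Tnfrsf17, Prdm1 and Xbp1 differed by 0.52 (SE 0.45), 0.38 (SE 0.30), 0.09 (SE 0.26) and 0.05 (SE 0.55). Stem cell markers had a median difference of -0.22, and their median stood 0.69, -0.19 and -1.35 from the wildtype mean in knockout replicates 1, 2 and 3. In knockout replicate 3, the array with the highest neutrophil median, 7 of the 8 stem cell markers lay below their wildtype mean. The medians of the other marker lists were -0.04 for genes of the sort's excluded markers, -0.12 for B cells, -0.78 for erythroid, 0.16 for megakaryocyte, -0.23 for mast cell and basophil and 0.38 for monocyte and dendritic cell genes. The part of these cell types in the values of the members was not tested.

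**Figure D4:**
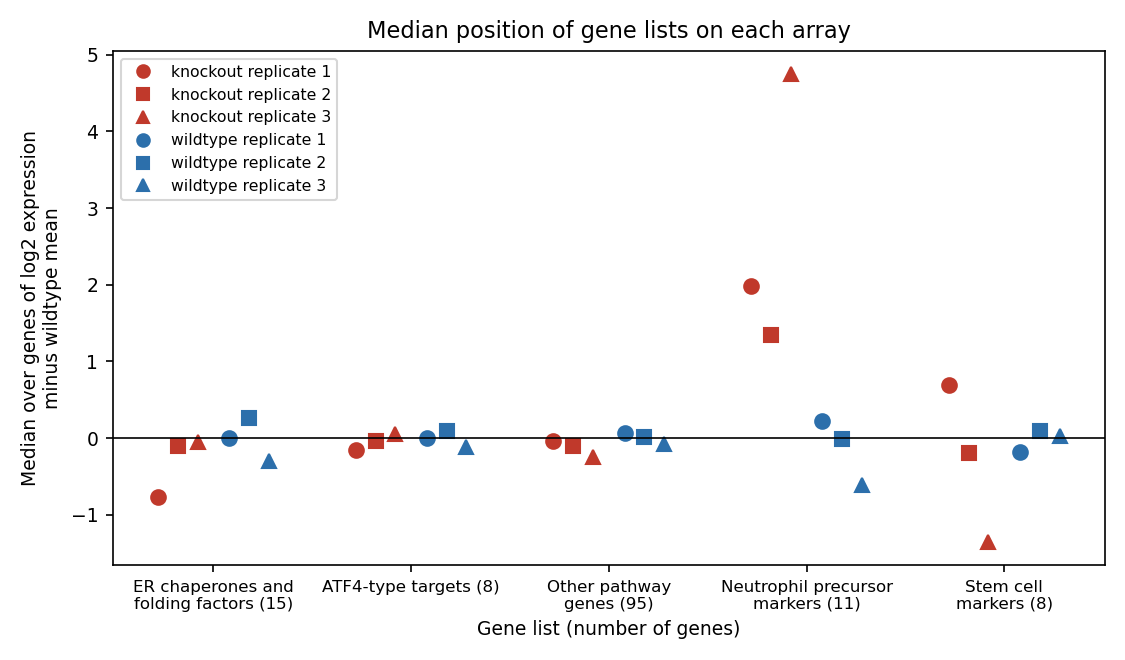
Median over the genes of a list of log2 expression minus the gene's wildtype mean, for each knockout (red) and wildtype (blue) array. Chaperones reach -0.77 in knockout replicate 1 and ATF4-type targets stay between -0.16 and 0.10, while neutrophil precursor markers reach 4.75 in knockout replicate 3. Wildtype arrays enter their own mean, which draws them towards 0.

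The SD was larger in knockout than in wildtype for 20 of the 31 members, and for 60.9% of genes above the median level. The median SD of a member was 0.59 in knockout and 0.49 in wildtype, against 0.77 and 0.62 for genes above the median level. In each of 14 other settings that gave a value for the gene, 16 of the 31 members kept the sign of their difference. Phgdh and Slc7a11 had a value in 13 of the 14. The 16 include Pdia4, P4hb, Herpud1, Psat1, Dnajc3 and Hsp90b1 below 0 and Hspa5, Manf, Phgdh and Slc7a11 above 0. Some of the 14 settings alter only the error or the set of genes fitted, so they could not reverse a sign. Nor could leaving out 1 array for Pdia4, P4hb, Herpud1 and Psat1, whose groups do not overlap.

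Other genes of the 2 responses, 95 measured of 100 listed by role, had a median difference of -0.12, with 57 below 0, and 0 passed after adjustment. At an unadjusted p under 0.05 there were 5, all lower in knockout, where 2.44% of all genes were. Their groups did not overlap for 8 genes lower in knockout, where this held for 4.25% of all genes and 6.3% of those above the median level, and for 2 higher, where it held for 6.67% and 4.89%. Of the 95 genes, 86 lay above that level. Over the 9096 genes above it, 338 were lower in knockout and 177 higher at an unadjusted p under 0.05 in limma. The lists of regulators, ER folding, ER degradation, translocation into the ER and further ATF4-type genes had medians of -0.01, -0.16, -0.19, -0.34 and 0.06 over 13, 15, 16, 15 and 36 genes.

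Of those without overlap, 3 below 0 and 2 above are given as the ones with the smallest unadjusted p. Creb3l2, an ER-bound transcription factor of the ATF6 kind, read 6.31, 7.25 and 3.85 in knockout and 8.83, 8.63 and 9.45 in wildtype, a difference of -3.17 (SE 0.91, adjusted p = 0.887 in limma). Its second probe set was lower without overlap too, by -0.91 (SE 0.46). Fkbp11, a prolyl isomerase of secretory cells, read 5.41, 5.97 and 5.43 in knockout and 7.66, 6.84 and 6.33 in wildtype, while its 2 other probe sets differed by 0.45 and -0.03. Sec61b, a subunit of the channel through which proteins enter the ER, read 10.14, 10.46 and 10.77 in knockout and 11.22, 10.85 and 11.74 in wildtype, a difference of -0.81 (SE 0.32). Sdf2, a homologue of Sdf2l1, read 10.54, 10.23 and 10.80 in knockout and 9.63, 9.82 and 10.20 in wildtype. Its difference was 0.64 (SE 0.33). Eif4ebp1, a translation repressor that ATF4 raises, read 10.40, 10.49 and 10.48 in knockout and 10.17, 9.96 and 8.90 in wildtype, and its difference of 0.78 was 0.40 without wildtype replicate 3.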

How the data were processed

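Long-term stem cells from 3 Irf8 knockout and 3 wildtype samples were measured on 1 array each. The authors deposited 1 log2 value per probe set and array. Per the submitters' processing notes, the tools were Partek, RMA and Affymetrix Expression Console; no source used here gives their versions or settings. RMA adjusts background, sets all arrays to 1 distribution and combines probes, so small signals differ by less than the RNA does. The platform annotation gave 1 gene to 34945 of 45037 probe sets, several to 932 and none to 9160; 34741 matched RefSeq by Entrez number. Groups come from the sample titles.

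Knockout minus wildtype was fitted in limma 3.58.1 (R 4.3.3) with a mean-variance trend, over 18193 genes and separately over 45037 probe sets, without a filter on level, two-sided, with Benjamini-Hochberg adjustment and a threshold of 0.05. P-values measure the spread between 3 samples a group, and the number of arrays limits their precision. In 10 simulations on these 18193 genes, 200 genes were changed in each, spread equally over changes of 2-, 4-, 8- and 16-fold. There limma called 6% of genes changed 2-fold and 31.2% of those changed 4-fold. Of genes changed 8-fold it called 52.4%, and false calls averaged 3.3 a run. Large changes in a run ease the adjusted threshold for smaller ones, so these shares hold for that mix of changes only. The changed genes were drawn from all genes, whose median SD was 0.46 in knockout and 0.37 in wildtype. For the members it was 0.59 and 0.49, so the shares do not give the recovery among members.

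The members and lists were chosen with earlier results of these data known. All 31 members are named, and from the other pathway genes up to 3 a direction with the smallest unadjusted p among those without overlap; 5 of those 100 genes are not analysed here. Same-numbered arrays were compared by their deviations from group means, with correlations of -0.02, -0.01 and -0.01, so the numbers were not taken as pairs. Promoter windows were searched in Python 3.11.15 with pandas 2.3.3; figures used matplotlib 3.10.9.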

Additional observations from a re-analysis of the deposited data

How the results depend on the processing

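The alternatives were no mean-variance trend, array weights, 2 other choices of probe set, a filter on level, 2 other scalings, a replicate block and leaving out each array. Under each, 0 members and 0 other pathway genes passed. Over all genes, averaging the probe sets of a gene gave 1 call and 1 came with arrays centred on their median, and 0 otherwise. The median of the 31 members ran from -0.37 to -0.14 with an array left out, that of the chaperones from -0.54 to -0.27 and that of the ATF4-type targets from -0.35 to 0.15. The chaperone median was -0.63 without probe sets of types _x_at and _s_at and -0.50 with the mean of probe sets, against -0.31. The ATF4-type median was -0.20 with array weights, 0.075 without probe sets of types _x_at and _s_at and -0.19 among genes above the median level. With the replicate block, the member median was -0.28 and no call was altered.

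Of 430 recomputed member differences, 31 had the opposite sign, in 15 members. The 430 include settings that cannot alter a difference, namely no mean-variance trend, the replicate block and the filter on level. They also include other choices of probe set that kept the same probe set. With array weights Atf6 differed by 0.18, Xbp1 by -0.083 and Asns by -0.24. With the mean of probe sets Hyou1 differed by -0.36, Canx by -1.21, Pdia3 by 0.36 and Edem1 by -0.92. Without types _x_at and _s_at Hyou1 differed by -1.36, Canx by -1.34, Shmt2 by 0.075 and Fkbp11 by 0.45. These choices take other probe sets of the gene. With an array left out, the lowest and highest differences were -0.96 and 0.41 for Atf6, -0.34 and 0.35 for Xbp1, -0.80 and 0.079 for Atf4, -0.032 and 1.17 for Ddit3, -0.011 and 0.31 for Canx, -0.68 and 0.17 for Pdia3, -0.54 and 0.082 for Dnajb11, -1.87 and 0.34 for Sel1l, -1.22 and 0.94 for Asns, -0.24 and 0.18 for Chac1, -1.22 and 0.21 for Trib3, -0.00029 and 0.32 for Sesn2, and -0.10 and 0.35 for the other probe set of Pdia4. The cause was not tested.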
